A study of Mus musculus with 23 samples.

Results

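The genes described here encode the proteasome and the proteins that build and regulate it, in the brown adipose tissue (BAT) of mice kept at room temperature (RT) or moved to 4°C. They were chosen by name. Every gene whose symbol begins with Psma to Psmg followed by a digit was taken, which gave 48 of the 14651 genes measured. Of these, 47 belong to the proteasome, and the remaining gene, Psmc3ip, encodes a meiotic recombination factor that matches by its letters only. Psma8 and Psmb11, subunits of the testis and thymus, were not analysed here.

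The proteasome is the large protease that degrades proteins tagged with ubiquitin. Its 20S core is a barrel of stacked rings, with outer rings of alpha subunits that gate the chamber and inner rings of beta subunits, among which PSMB5, PSMB6 and PSMB7 carry the active sites. The 19S particle caps the barrel and holds a base of ATPases that unfold the substrate and further subunits that bind ubiquitin and remove it. Interferon induces PSMB8, PSMB9 and PSMB10, which take the place of the active subunits in the immunoproteasome, and also the PA28 activator encoded by Psme1 and Psme2. In brown fat, proteasome activity is known to be raised during cold adaptation through the transcription factor NFE2L1.

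RNA from whole BAT of 23 male C57BL/6 mice aged 8 to 12 weeks was sequenced. All mice carried Mcu alleles with loxP sites (Mcu fl/fl). Mcu encodes the pore of the mitochondrial calcium uniporter. The control mice carried no Cre and the BAT-Mcu-KO mice carried Ucp1-Cre, a transgene with Cre under the Ucp1 promoter of brown adipocytes, so that other cells of the tissue keep the gene. There were 6 control mice at RT, 5 control mice at 4°C, 6 BAT-Mcu-KO mice at RT and 6 BAT-Mcu-KO mice at 4°C. Mice at 4°C were housed singly for 6 h. The cold cages held no food, and whether the mice at RT could eat in those hours is not given in the sources used here, so cold and the absence of food cannot be told apart. The values are normalized counts, the reads of a gene divided by a size factor that puts the libraries on a common scale. A library held 7129271 to 21006347 reads, and the lowest value of any of the 48 genes in any mouse was 6.90, from 6 reads.

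The targeted gene followed the labels. Mcu lay at 81.4 to 136 normalized counts (median 107) in the controls at RT and at 15.2 to 42.4 (median 38.1) in the BAT-Mcu-KO group at RT, and at 4°C the 5 control values (70.8, 86.5, 127, 132 and 118) were all above the highest BAT-Mcu-KO value of 39.9. Ucp1, the uncoupling protein that defines brown adipocytes, was abundant in every mouse and rose in the cold in control mice (log2 fold change 1.37 ± 0.10, SE) and in BAT-Mcu-KO mice (1.47 ± 0.10). Of 10 brown adipocyte genes, 5 were higher and 4 lower in control mice and 4 higher and 2 lower in BAT-Mcu-KO mice, with Ppargc1a (5.10 and 4.33), Dio2 (5.19 and 4.96) and Elovl3 (2.55 and 2.65) rising most. Transcripts of skeletal muscle were present to very different extents. The sum of 8 muscle genes ranged from 13.7 to 31438 in control mice at 4°C while the BAT-Mcu-KO mice at RT spanned 18.6 to 44567, although none of the 8 genes passed the test for cold in either genotype by limma, none with an unadjusted p under 0.05 (DESeq2 called 2 in BAT-Mcu-KO mice and edgeR 2 in each genotype). The counts of the 48 genes, of their main classes and of the companion lists are therefore given also without the 6 libraries with the highest sums. These were 3 of the 5 control libraries at 4°C and 3 of the 6 BAT-Mcu-KO libraries at RT. Over all genes, 2320 instead of 3269 were then higher in control mice, and 2419 instead of 3136 in BAT-Mcu-KO mice. A call lost without these libraries cannot be told apart from the effect of the smaller groups. Of the brown adipocyte genes 4 were then higher and 2 lower in each genotype. Of the muscle genes 7 were then lower in control mice and none was called in BAT-Mcu-KO mice. As the libraries were left out by the sum of these same muscle genes, these muscle counts are no test of cold. As the tissue was taken whole, fewer cells of a type and less RNA per cell cannot be told apart.

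The first comparison asked how 6 h in the cold changed these genes. The regulatory particle rose, the immunoproteasome and PA28 genes fell, and most of the core did not pass the test in control mice. Of the 48 genes, 19 were higher and 11 lower at 4°C in control mice at an adjusted p under 0.05 (limma on log2 values, Benjamini-Hochberg over 14651 genes), where 22.3% of all genes were higher and 23.7% were lower. In BAT-Mcu-KO mice 21 were higher and 7 lower, against 21.4% and 21.9% of all genes. Counts by class and by list from this fit stand against the same shares. The share of higher genes among the 48 was thus above the background in both genotypes, and that of lower genes was not above it in either with this scaling. The genotypes shared 16 genes called higher, of the 19 and of the 21, and 7 called lower, of the 11 and of the 7. The median log2 fold change of the 48 genes was 0.10 in control mice and 0.19 in BAT-Mcu-KO mice, and that of all genes was -0.02 in both.

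In control mice, 11 of the 48 genes had every mouse at 4°C above every mouse at RT and 5 had every mouse below, against 13.0% and 12.3% of all genes. In BAT-Mcu-KO mice these counts were 13 and 4, against 12.4% and 11.9%. The number of higher calls depended on how the libraries were scaled. When each library was divided by its 75th percentile, which moved the all-gene median of the controls from -0.02 to -0.13 and the split of all genes from 3269 higher and 3466 lower to 2644 and 4281, 11 of the 48 genes were higher and 13 lower in control mice, and 17 and 7 in BAT-Mcu-KO mice, where 18.0% and 29.2% of all genes were higher and lower in control mice and 19.1% and 24.2% in BAT-Mcu-KO mice. Quantile normalization gave 12 higher and 16 lower in control mice and 12 and 7 in BAT-Mcu-KO mice, against 21.1% and 24.6% of all genes in control mice and 21.4% and 22.3% in BAT-Mcu-KO mice, so that the share of lower genes was then above the background in control mice. Under all 3 scalings, 11 genes stayed higher and 10 stayed lower in control mice, and 10 and 5 did so in BAT-Mcu-KO mice. Without the 6 libraries rich in muscle transcripts, 17 genes were higher and 7 lower in control mice, against 15.8% and 16.7% of all genes, and 17 and 5 in BAT-Mcu-KO mice, against 16.5% and 16.0%.

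**Figure D1:**
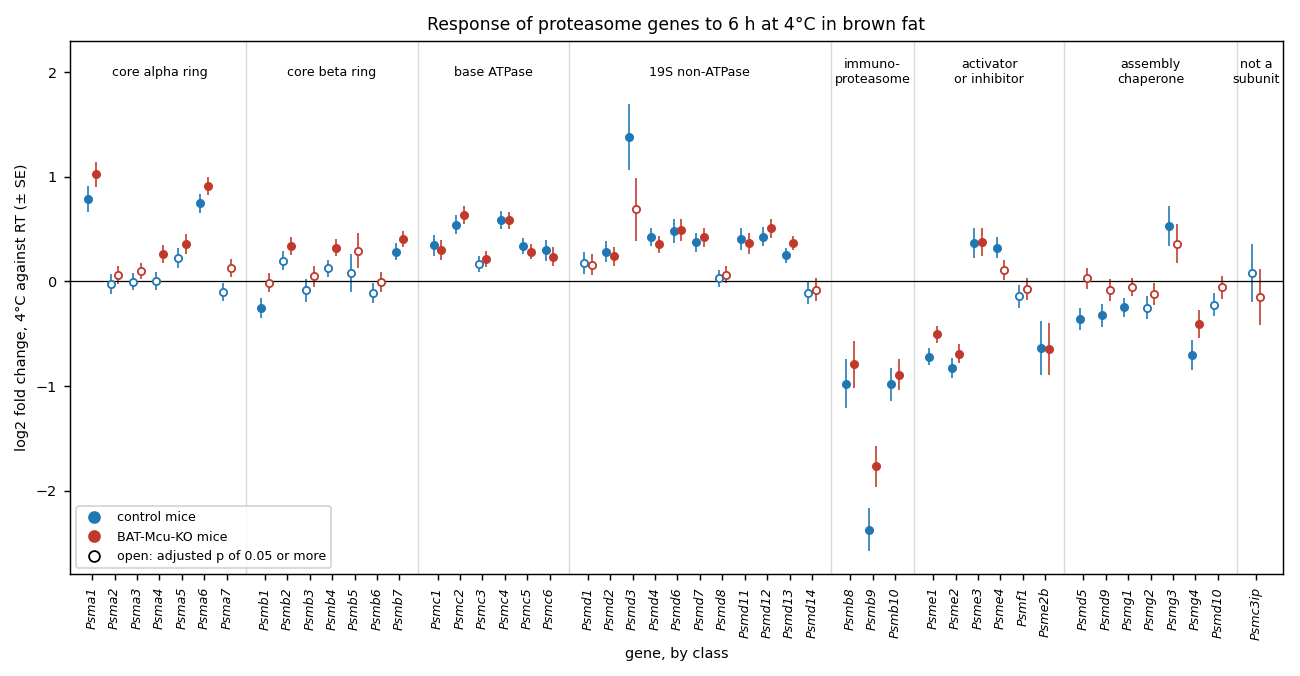
Log2 fold change at 4°C against RT of each of the 48 genes, grouped by class, in control mice (blue) and BAT-Mcu-KO mice (red), with its standard error as the bar. Filled points passed the test, and 13 of 17 genes of the 19S particle lie above 0 as filled points in each genotype while Psmb8, Psmb9, Psmb10, Psme1 and Psme2 lie below 0 in both.

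The 19S particle rose as a group. Of its 17 genes, 13 were higher and none was lower in each genotype, with a median log2 fold change of 0.34 in control mice and 0.35 in BAT-Mcu-KO mice. The rise was modest in size, and outside Psmd3 the largest value was that of Psmc2 in BAT-Mcu-KO mice (0.64 ± 0.09, a 1.55-fold rise). With 75th percentile scaling 9 of the 17 genes were higher in control mice and 10 in BAT-Mcu-KO mice, and with quantile normalization 9 and 6, with Psmd14 then called lower in control mice (-0.28). Without the 6 libraries rich in muscle transcripts 14 and 12 genes were higher, with medians of 0.46 and 0.36.

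Among the 6 base ATPases, which form the ring that unfolds substrates, 5 were higher in control mice and 6 in BAT-Mcu-KO mice. Psmc4, the ATPase with the smallest p in control mice, stood at 987 to 1321 normalized counts (median 1240) in the controls at RT and at 2063, 1777, 1898, 1601 and 1675 at 4°C. In the BAT-Mcu-KO mice it stood at 1036 to 1311 (median 1186) at RT and at 1654 to 1906 (median 1759) at 4°C. No mouse in the cold overlapped with a mouse at RT in either genotype. The log2 fold change was 0.58 ± 0.09 (adjusted p = 4.44e-06) in control mice and 0.58 ± 0.08 (adjusted p = 2.43e-06) in BAT-Mcu-KO mice. Psmc2 rose 1.46-fold in control mice and 1.55-fold in BAT-Mcu-KO mice, again with no overlap. Psmc3 was the ATPase that did not pass the test in control mice (0.16 ± 0.08, adjusted p = 0.0928), and its exons share 215 bases with those of Slc39a13 on the other strand. Per kilobase of exon, Psmc5 had the highest value of the ATPases in control mice at RT (884 ± 73.8 normalized counts per kb, SD, n = 6). Psmc2 had the lowest, at 174. The lengths, 1394 bases for Psmc5 and 5031 for Psmc2, merge the exons of all annotated transcripts. This order therefore depends on the annotation and is not one of transcript abundance.

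Among the 11 other genes of the 19S particle, 8 were higher in control mice and 7 in BAT-Mcu-KO mice. Psmd4, a receptor for ubiquitin chains, had the smallest p of these in control mice. It lay at 1508 to 1916 normalized counts (median 1735) in the controls at RT and at 2492, 2078, 2373, 2246 and 2304 at 4°C, with no overlap. The log2 fold change was 0.42 ± 0.09 (adjusted p = 0.000318). In BAT-Mcu-KO mice Psmd4 lay at 1648 to 2137 (median 1726) at RT and at 2036 to 2582 (median 2384) at 4°C, where the groups overlapped, and the log2 fold change was 0.35 ± 0.08 (adjusted p = 0.00131), a call lost with quantile normalization (0.17, adjusted p = 0.0665). Psmd12 and Psmd6, structural subunits of the lid, rose in both genotypes, Psmd12 by 0.43 and 0.51 and Psmd6 by 0.48 and 0.49 on the log2 scale. Psmd14, the lid enzyme that cuts ubiquitin chains off the substrate, did not pass the test (-0.11 ± 0.11 in control mice and -0.08 ± 0.11 in BAT-Mcu-KO mice), and neither did Psmd8 (0.03 and 0.06) or Psmd1 (0.18 and 0.16).

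Psmd3, a scaffold subunit of the lid, is named here because its values stood apart once they were seen. It had the largest rise of the 48 genes in control mice, a log2 fold change of 1.38 ± 0.32 (adjusted p = 0.000873), and the largest standard error. It lay at 223 to 454 normalized counts (median 315) in the controls at RT and at 419, 735, 1199, 831 and 1079 at 4°C. In BAT-Mcu-KO mice at RT 5 mice lay between 278 and 387 while the other mouse reached 1004, and at 4°C the values ran from 289 to 1043 (median 666). The groups overlapped in both genotypes, and in BAT-Mcu-KO mice the difference of 0.69 ± 0.30 did not pass the test (adjusted p = 0.0688). Without the mouse at 1004 it did (0.96, adjusted p = 0.00510), and without BAT-Mcu-KO mouse 6 at 4°C it did as well (0.91, adjusted p = 0.0133). The test of the difference between genotypes gave -0.69 ± 0.44 (adjusted p = 0.863).

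**Figure D2:**
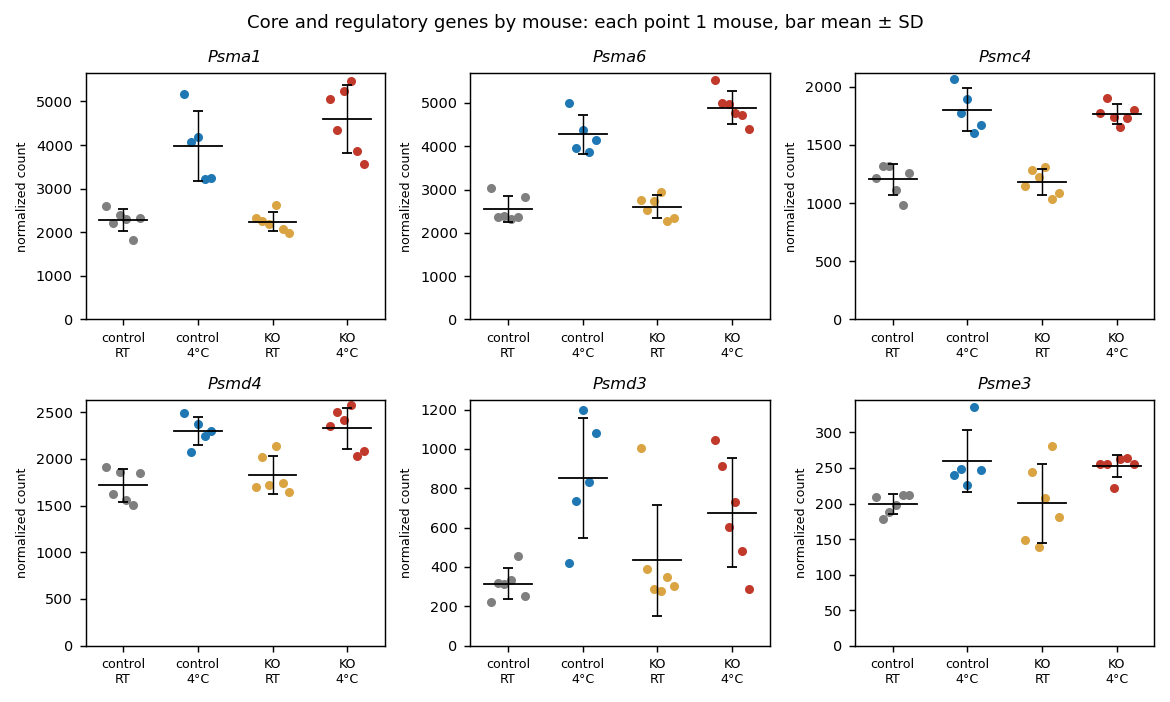
Normalized count of 6 core and regulatory genes in each mouse (points) of the 4 groups, with the mean and SD of the group as bars and the vertical axes starting at 0. Psma1, Psma6 and Psmc4 separate every mouse at 4°C from every mouse at RT in both genotypes, while Psmd3 overlaps, with 1 BAT-Mcu-KO mouse at RT at 1004.

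The 14 genes of the 20S core did not rise together in control mice. There 3 were higher and 1 lower, against 22.3% and 23.7% of all genes, with a median log2 fold change of 0.04. With 75th percentile scaling 2 were higher and 1 lower (median -0.07), and with quantile normalization 2 were higher and 4 lower (median -0.08). In BAT-Mcu-KO mice 7 were higher and none was lower, against 21.4% and 21.9% of all genes, with a median of 0.28. With 75th percentile scaling 7 were higher and none was lower there (median 0.23), and with quantile normalization 4 were higher and 2 lower (median 0.15). Without control mouse 1 at RT, 5 core genes were higher in control mice. Without the 6 libraries rich in muscle transcripts 3 and 5 core genes were higher. The genotypes were compared directly further on, and no core gene passed that test.

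Psma1 and Psma6, both of the outer ring, stood apart from the rest of the core. The alpha subunits they encode have no proteolytic activity. Psma6, which had the smallest p of its class, lay at 2317 to 3038 normalized counts (median 2376) in the controls at RT and at 5008, 3968, 4378, 3875 and 4134 at 4°C. In the BAT-Mcu-KO mice it lay at 2266 to 2955 (median 2641) at RT and at 4388 to 5523 (median 4862) at 4°C. The log2 fold changes were 0.75 ± 0.09 (1.68-fold, adjusted p = 2.32e-07) and 0.91 ± 0.09 (1.88-fold, adjusted p = 4.08e-09). Psma1 rose from 1832 to 2610 (median 2313) to 5170, 4075, 4195, 3217 and 3250 in control mice and from 1993 to 2622 (median 2217) to 3572 to 5465 (median 4700) in BAT-Mcu-KO mice. Psma1 had its highest value in control mouse 1 at 4°C. The rises were 1.73-fold (log2 0.79 ± 0.12, adjusted p = 9.97e-06) and 2.03-fold (1.02 ± 0.12, adjusted p = 1.19e-07). For both genes no mouse in the cold overlapped with a mouse at RT. Per kilobase of merged exon, Psma6 already had the highest value of the core at RT, at 2064 ± 247 normalized counts per kb in control mice (SD, n = 6). Psma1 stood at 772 ± 87.0 and the other 5 alpha genes at 237 to 529. The merged lengths are 1234 bases for Psma6 and 2952 for Psma1. Before division by length the medians of Psma6 and Psma1 in control mice at RT were close (2376 and 2313). The summed normalized count of the other 12 core genes lay at 12195 to 17712 in control mice at RT and at 13039.9 to 15535 at 4°C (means 14560 and 14315), and at 12613 to 15211 and 14703 to 16319 in BAT-Mcu-KO mice (means 13902 and 15438). These ranges overlapped in both genotypes. Among the other alpha genes Psma4 (0.26) and Psma5 were called higher in BAT-Mcu-KO mice.

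The promoters of these genes are shown because they moved together and away from the rest of their ring. Each run covers 250 bases before to 50 after the transcription start in RefSeq on GRCm38.p6, written 5′ to 3′ on the strand of the gene. Capitals mark each CCAAT box, the letters that the factor NF-Y is known to bind, on either strand (CCAAT or ATTGG). RefSeq gives 2 starts for Psma6. The Psma1 window lies at chr7:114276067-114276366 on the minus strand and the Psma6 windows at chr12:55383972-55384271 and chr12:55398575-55398874 on the plus strand.
Psma1: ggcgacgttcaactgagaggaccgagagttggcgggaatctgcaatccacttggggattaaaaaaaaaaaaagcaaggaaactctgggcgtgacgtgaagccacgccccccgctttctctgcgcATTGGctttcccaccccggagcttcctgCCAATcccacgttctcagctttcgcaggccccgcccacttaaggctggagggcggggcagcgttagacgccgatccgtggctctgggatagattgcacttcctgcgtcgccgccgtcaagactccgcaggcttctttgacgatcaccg
Psma6, first start: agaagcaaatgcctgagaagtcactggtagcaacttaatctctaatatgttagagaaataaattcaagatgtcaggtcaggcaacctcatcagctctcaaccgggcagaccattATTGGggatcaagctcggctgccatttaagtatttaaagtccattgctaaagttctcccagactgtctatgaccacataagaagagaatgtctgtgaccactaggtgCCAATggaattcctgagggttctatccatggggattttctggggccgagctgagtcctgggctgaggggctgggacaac
Psma6, second start: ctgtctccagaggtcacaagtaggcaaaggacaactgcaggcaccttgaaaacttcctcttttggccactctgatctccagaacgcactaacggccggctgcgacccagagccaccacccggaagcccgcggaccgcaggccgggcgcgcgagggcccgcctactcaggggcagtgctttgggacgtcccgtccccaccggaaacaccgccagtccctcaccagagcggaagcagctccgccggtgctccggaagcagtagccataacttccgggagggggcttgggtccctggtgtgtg

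Psma1 held CCAAT at 126 and 98 bases before the start, in opposite orientations, and the first Psma6 window held it at 136 and 29 bases before the start, likewise in opposite orientations. The second Psma6 window held none. The box is common. It was found in 5 of the 8 windows of the alpha ring, in 14 of the 44 windows of the 41 genes that could be matched, and in 37.4% of the 32851 mouse windows. Psma2, Psma3 and Psma7, whose transcripts did not pass the test for cold in either genotype, held it too.

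In the inner ring the active subunits differed from each other. Psmb7, the trypsin-like subunit, rose in both genotypes. It lay at 527 to 652 normalized counts (median 589) in the controls at RT and at 795, 716, 729, 671 and 690 at 4°C, and at 505 to 688 (median 595) and 740 to 880 (median 775) in BAT-Mcu-KO mice, with no overlap in either. The log2 fold changes were 0.28 ± 0.08 (adjusted p = 0.00592) and 0.41 ± 0.08 (adjusted p = 0.000121). In control mice the call was lost with 75th percentile scaling (0.17, adjusted p = 0.0785) and with quantile normalization (0.17, adjusted p = 0.0729). Psmb7 shares 405 exon bases, 11.8% of its own, with Nek6 on the other strand, and the reads were counted without regard to strand.

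Psmb5, the chymotrypsin-like subunit, lay at 424 to 836 (median 530) in control mice at RT, at 611, 750, 579, 486 and 540 at 4°C, and at 434 to 761 (median 518) and 500 to 922 (median 608) in BAT-Mcu-KO mice. Its differences of 0.08 ± 0.18 and 0.29 ± 0.17 did not pass the test, and that in control mice turned negative under both other scalings. Psmb6, the caspase-like subunit, lay at 1804 to 2820 (median 1890) in the controls at RT and at 2071, 1792, 2014, 1878 and 1848 at 4°C, and at 1858 to 2272 (median 1949) and 1861 to 2169 (median 2018) in BAT-Mcu-KO mice. The differences of -0.11 ± 0.10 and -0.01 ± 0.09 did not pass the test, although quantile normalization called Psmb6 lower in both genotypes (-0.29 and -0.20). Psmb1, a beta subunit without an active site, was the core gene called lower, in control mice (-0.26 ± 0.09, adjusted p = 0.0290), and its log2 fold change in BAT-Mcu-KO mice was -0.01 ± 0.09. The call in control mice was lost without control mouse 1 or 6 at RT or without control mouse 2, 4 or 5 at 4°C (-0.25 to -0.19, adjusted p = 0.0544 to 0.0843), without the 6 libraries rich in muscle transcripts (-0.15, adjusted p = 0.449) and with only the 2 groups compared (-0.26, adjusted p = 0.0857). In BAT-Mcu-KO mice quantile normalization called Psmb1 lower (-0.19, adjusted p = 0.0422).

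The immunoproteasome genes fell. Psmb9 (chr17:34181987-34187764, minus strand, GRCm38) and Psmb8 (chr17:34197721-34201454, plus strand) lie close together among the antigen presentation genes, and Psmb10 lies at chr8:105935735-105938444 on the minus strand. All 3 were lower in the cold in both genotypes, and they stayed lower under each scaling, without each mouse in turn and without the 6 libraries rich in muscle transcripts. Psmb9, which replaces Psmb6, lay at 127 to 200 normalized counts (median 183) in the controls at RT and at 34.4, 22.8, 49.8, 26.4 and 39.3 at 4°C. In the BAT-Mcu-KO mice it lay at 112 to 219 (median 137) at RT and at 31.0 to 62.2 (median 39.0) at 4°C. No mouse in the cold reached the lowest mouse at RT. The log2 fold change was -2.37 ± 0.21 in control mice (5.17-fold lower, adjusted p = 1.13e-09) and -1.77 ± 0.20 in BAT-Mcu-KO mice (3.40-fold lower, adjusted p = 7.60e-08). Psmb9 was the member with the largest change in either direction in both genotypes.

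Psmb8, which replaces Psmb5, lay at 160 to 278 (median 227) in the controls at RT and at 136, 50.1, 113, 123 and 178 at 4°C, and at 143 to 288 (median 194) and 83.1 to 173 (median 110) in BAT-Mcu-KO mice. The groups overlapped by their outermost mice, and the log2 fold changes were -0.98 ± 0.23 (adjusted p = 0.00134) and -0.79 ± 0.22 (adjusted p = 0.00579). Psmb10, which replaces Psmb7, fell from 185 to 313 (median 239) to 117, 85.0, 131, 128 and 139 in control mice and from 187 to 249 (median 224) to 89.5 to 168 (median 119) in BAT-Mcu-KO mice. There was no overlap, and the log2 fold changes were -0.98 ± 0.16 (adjusted p = 1.49e-05) and -0.89 ± 0.15 (adjusted p = 3.07e-05). An antisense transcript, Gm20496, shares 498 bases (14.7%) with the exons of Psmb8.

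The PA28 activator of the immunoproteasome fell with it. Its genes also lie close together, Psme1 at chr14:55578123-55581529 on the plus strand and Psme2 at chr14:55587441-55591113 on the minus strand. Psme1 lay at 581 to 766 normalized counts (median 662) in the controls at RT and at 384, 405, 391, 410 and 432 at 4°C, and at 576 to 691 (median 599) and 395 to 474 (median 429) in BAT-Mcu-KO mice. Psme2 lay at 751 to 1018 (median 805) in the controls at RT and at 534, 501, 457, 434 and 467 at 4°C, and at 680 to 896 (median 796) and 443 to 546 (median 477) in BAT-Mcu-KO mice. For both genes every mouse in the cold was below every mouse at RT. Psme1 fell by 0.72 and 0.51 on the log2 scale (SE 0.08 in both, adjusted p = 8.87e-08 and 8.56e-06). Psme2 fell by 0.82 ± 0.10 and 0.69 ± 0.09 (adjusted p = 1.15e-07 and 8.90e-07). Psme2b is a copy of Psme2 that is nearly identical in sequence. Only uniquely mapping reads were counted, so reads that match both genes equally are missing from both values. Psme2b lay at 16.0 to 35.9 at RT in control mice and was called lower in both genotypes (-0.64 ± 0.26, adjusted p = 0.0447, and -0.64 ± 0.25, adjusted p = 0.0352).

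**Figure D3:**
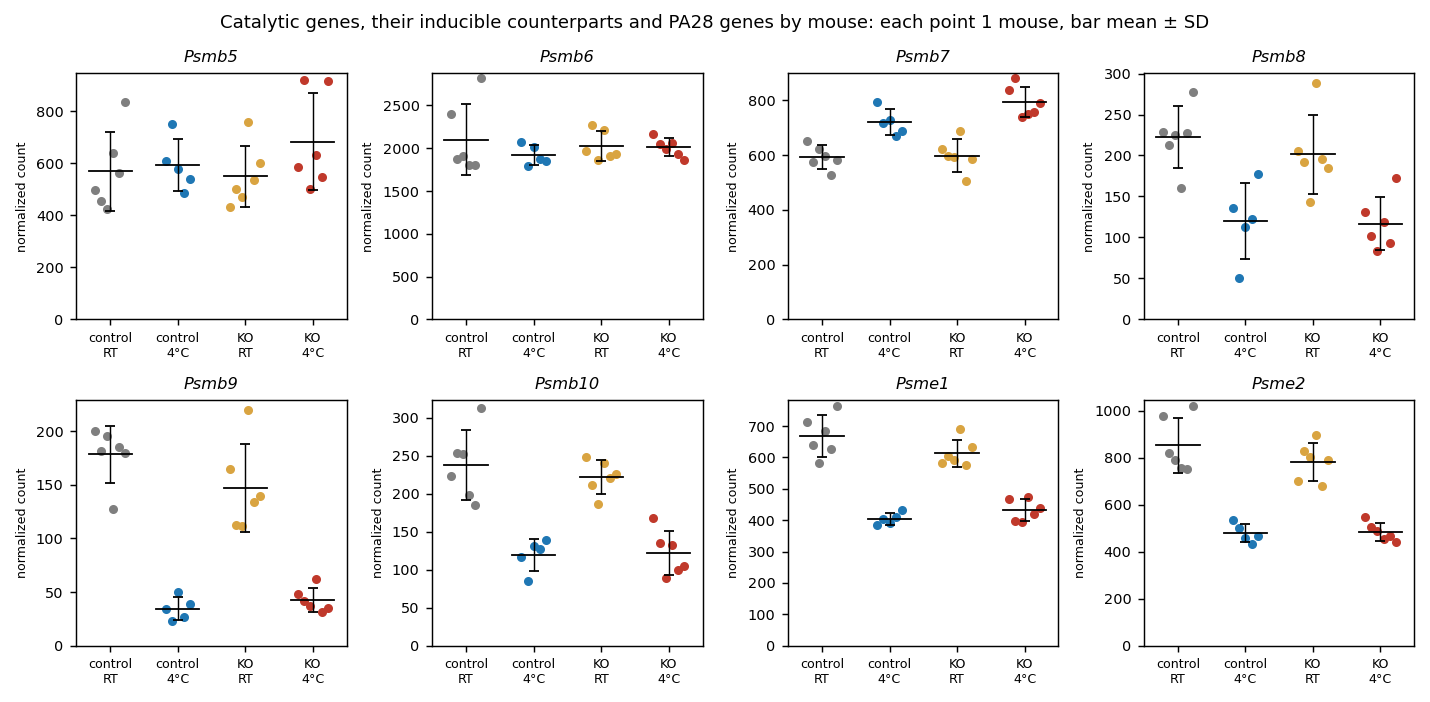
Normalized count in each mouse of the catalytic genes Psmb5, Psmb6 and Psmb7, of Psmb8, Psmb9 and Psmb10, which replace them in the immunoproteasome, and of the PA28 genes Psme1 and Psme2, with the mean and SD of each group as bars and axes starting at 0. Psmb9, Psmb10, Psme1 and Psme2 separate cold from RT completely in both genotypes, and Psmb5 and Psmb6 do not.

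As lengths differ, the inducible and constitutive partners were compared per kilobase of exon. A length merges the exons of all annotated transcripts of a gene. It was 3381 bases for Psmb8 and 899 for Psmb5, 3660 for Psmb9 and 1872 for Psmb6, and 1705 for Psmb10 and 3421 for Psmb7. The shares depend on these lengths and are not proportions of transcripts. Psmb9 made up 4.23% ± 0.787 (SD, n = 6) of the summed Psmb9 and Psmb6 values per kb in control mice at RT and 0.905% ± 0.252 (n = 5) at 4°C. The shares in the BAT-Mcu-KO mice were 3.57% ± 0.834 and 1.06% ± 0.248 (n = 6 each). Psmb8 made up 9.74% ± 2.24 of Psmb8 and Psmb5 at RT and 5.32% ± 2.32 at 4°C in control mice, and 8.90% ± 1.36 and 4.43% ± 0.922 in BAT-Mcu-KO mice. Psmb10 made up 44.4% ± 4.54 of Psmb10 and Psmb7 at RT and 25.0% ± 3.91 at 4°C in control mice, and 42.7% ± 2.83 and 23.3% ± 3.52 in BAT-Mcu-KO mice. The constitutive gene of each pair had the higher group mean per kilobase at both temperatures. Its normalized counts before division by length were higher as well. The ranges for Psmb9 and Psmb10 did not overlap between temperatures, while those for Psmb8 overlapped in control mice (6.23% to 12.4% at RT, 1.75% to 8.06% at 4°C) and not in BAT-Mcu-KO mice.

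The windows of Psmb9 (chr17:34187281-34187580, minus strand) and Psme1 (chr14:55578244-55578543, plus strand) are given since these were the inducible subunit and the activator with the smallest p in control mice. Capitals mark the CCAAT box in Psmb9 and, in Psme1, the letters GAAANNGAA, the core that interferon regulatory factors are known to bind, searched on both strands.
Psmb9: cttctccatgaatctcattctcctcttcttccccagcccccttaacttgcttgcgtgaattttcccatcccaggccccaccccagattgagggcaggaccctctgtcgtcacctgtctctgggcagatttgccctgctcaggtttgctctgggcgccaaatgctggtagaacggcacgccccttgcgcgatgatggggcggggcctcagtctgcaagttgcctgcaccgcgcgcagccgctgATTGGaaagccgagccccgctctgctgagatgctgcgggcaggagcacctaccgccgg
Psme1: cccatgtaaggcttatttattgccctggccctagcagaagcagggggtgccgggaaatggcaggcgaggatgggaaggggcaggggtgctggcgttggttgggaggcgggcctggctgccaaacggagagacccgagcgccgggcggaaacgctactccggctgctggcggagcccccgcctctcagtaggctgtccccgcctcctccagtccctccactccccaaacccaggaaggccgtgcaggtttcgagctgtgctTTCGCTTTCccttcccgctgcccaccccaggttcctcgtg

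The interferon letters lay 11 bases after the Psme1 start. They were found in 7 of the 44 windows, those of Psmb3, Psmb4, Psmc2, Psmd4, Psmd9, Psme1 and Psmg4, and in 8.56% of all mouse windows. None of the 3 immunoproteasome windows held them within these 300 bases. Psmc2 and Psmd4, which rose, held them as well. Psmb9 and Tap1, the peptide transporter gene beside it, share 212 exon bases (5.79% of those of Psmb9) on opposite strands, and Tap1 fell by 1.83 ± 0.22 and 1.88 ± 0.21 on the log2 scale, so part of the reads of the pair cannot be told apart.

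**Figure D4:**
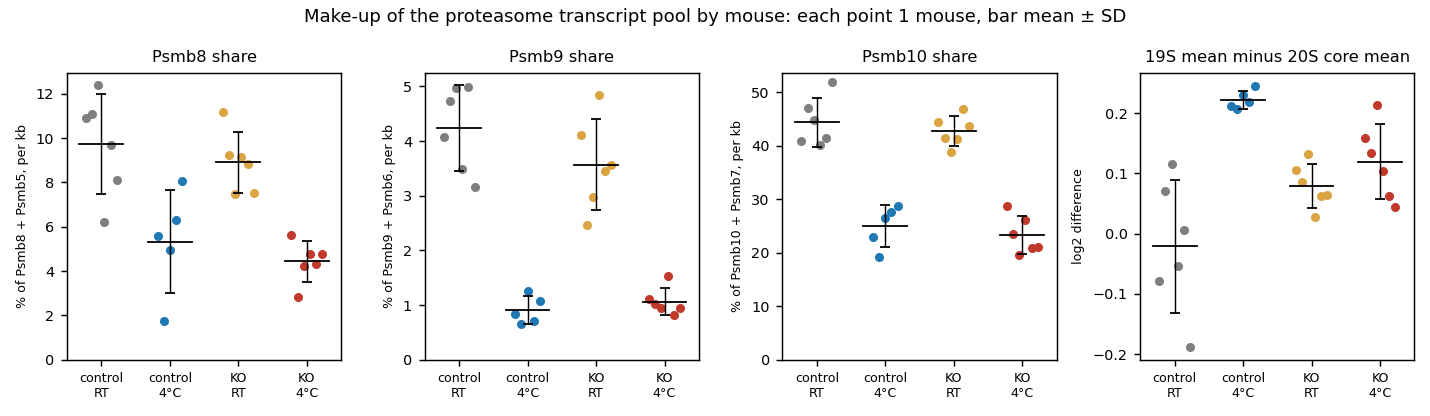
Share of the inducible gene in each catalytic pair, per kilobase of exon, and the mean log2 value of the 17 genes of the 19S particle minus that of the 14 core genes, in each mouse (points) with the group mean and SD as bars. The Psmb9 share lies between 3.16% and 4.99% in control mice at RT and between 0.645% and 1.25% at 4°C.

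The 19S and 20S genes were also compared within each mouse. The mean log2 value of the 19S genes minus that of the core genes was -0.02 ± 0.11 (SD, n = 6) in control mice at RT and 0.22 ± 0.02 (n = 5) at 4°C, with no overlap (-0.19 to 0.12 against 0.21 to 0.24). In the BAT-Mcu-KO mice it was 0.08 ± 0.04 at RT and 0.12 ± 0.06 at 4°C (n = 6 each), and the ranges overlapped. All 47 genes together made up 0.359% ± 0.0278 of the normalized counts in control mice at RT and 0.397% ± 0.0307 at 4°C, and 0.352% ± 0.0184 and 0.418% ± 0.0136 in BAT-Mcu-KO mice. The ranges overlapped in control mice and not in BAT-Mcu-KO mice (0.330% to 0.384% at RT, 0.391% to 0.428% at 4°C).

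The other activators went the opposite way to PA28. Psme3, the nuclear PA28 gamma, lay at 178 to 213 normalized counts (median 203) in the controls at RT and at 241, 249, 227, 336 and 247 at 4°C, and at 139 to 281 (median 194) and 222 to 263 (median 256) in BAT-Mcu-KO mice. The log2 fold changes were 0.37 ± 0.14 (adjusted p = 0.0384) and 0.38 ± 0.14 (adjusted p = 0.0277). Both calls were lost without the 6 libraries rich in muscle transcripts (0.23, adjusted p = 0.352, and 0.22, adjusted p = 0.309). That in control mice was lost under both other scalings and without mouse 2, 3 or 4 at RT or mouse 2, 4 or 5 at 4°C (0.27 to 0.38, adjusted p = 0.0508 to 0.140), and that in BAT-Mcu-KO mice without mouse 1, 3 or 6 at RT (0.28 to 0.36, adjusted p = 0.0541 to 0.0916), with 75th percentile scaling (0.33, adjusted p = 0.0626), with only the 2 groups compared (0.38, adjusted p = 0.0558) and with edgeR (0.33, adjusted p = 0.0513). Psme4, which encodes the activator PA200, was higher in control mice (0.32 ± 0.10, adjusted p = 0.00984), a call lost under both other scalings (0.21) and without the 6 libraries (0.23, adjusted p = 0.250), and stood at 0.11 ± 0.10 in BAT-Mcu-KO mice (adjusted p = 0.383). Psmf1, the inhibitor PI31, did not pass the test (-0.14 ± 0.11 and -0.07 ± 0.11).

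The assembly chaperones, which help the rings and the base to form and are not part of the finished particle, did not follow the 19S genes. Of 7 measured, 1 was higher and 4 lower in control mice, against 22.3% and 23.7% of all genes. In BAT-Mcu-KO mice none was higher and 1 lower, against 21.4% and 21.9%. Psmg4, a chaperone of the alpha ring, lay at 91.4 to 152 (median 110) in the controls at RT and at 80.9, 66.8, 54.8, 69.8 and 71.4 at 4°C, with no overlap, and the log2 fold change was -0.70 ± 0.14 (adjusted p = 0.000268). In the BAT-Mcu-KO mice it was -0.41 ± 0.14 (adjusted p = 0.0179), which was lost without mouse 4 at RT (-0.35, adjusted p = 0.0511), with quantile normalization (-0.31, adjusted p = 0.0770) and without the 6 libraries (-0.33, adjusted p = 0.197). Psmd5 (-0.36), Psmd9 (-0.32) and Psmg1 (-0.25) were the others called lower in control mice. Psmg3, the partner of Psmg4, was higher in control mice (0.53 ± 0.19, adjusted p = 0.0259) at a low level of 32.1 to 63.8 at RT and 70.8, 60.7, 54.8, 66.1 and 80.2 at 4°C, and this call was lost without mouse 3 or 5 at RT or mouse 5 at 4°C (adjusted p = 0.0590 to 0.0733), with 75th percentile scaling (adjusted p = 0.0755) and without the 6 libraries (adjusted p = 0.219). Without the 6 libraries rich in muscle transcripts 2 chaperones were lower in control mice and none in BAT-Mcu-KO mice. Psmc3ip, the gene that is no subunit, lay at 11.4 to 26.8 in control mice at RT and did not pass the test (0.08 ± 0.28 and -0.15 ± 0.27).

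The next comparison asked whether loss of Mcu in brown adipocytes changed these genes or their response to cold. None of the 48 genes passed the test for genotype. At RT 0 of 48 were called by limma, against 0.0478% of all genes, and 0 of 48 had an unadjusted p under 0.05, against 5.15% of all genes. At 4°C 0 were called, against 0.0751%, and 4 had an unadjusted p under 0.05 (Psma4, Psma6, Psmd5 and Psmc3ip), against 6.98%. For the interaction, the difference between genotypes in the response to cold, 0 were called, against 0.0%, and 3 had an unadjusted p under 0.05 (Psmd5, Psma4 and Psmb9), against 5.99%. DESeq2 and edgeR on the recovered reads called 0 of the 48 in each of the 3 comparisons as well. The smallest unadjusted p at RT was that of Psmc5, which lay at 1082 to 1370 normalized counts (median 1225) in the controls and at 1204 to 1512 (median 1324) in the BAT-Mcu-KO group (0.13 ± 0.07, adjusted p = 0.945). At 4°C it was that of Psma4, at 716, 736, 795, 677 and 685 in the controls and at 732 to 875 (median 855) in the BAT-Mcu-KO group (0.21 ± 0.09, adjusted p = 0.653). These values overlapped. For the interaction it was that of Psmd5, a chaperone of the base, which went from 347 to 469 (median 434) at RT to 330, 344, 327, 259 and 383 at 4°C in the controls and from 298 to 416 (median 386) to 362 to 403 (median 383) with the deletion (0.39 ± 0.14, adjusted p = 0.780). For Psmb9 the interaction was 0.60 ± 0.29 (adjusted p = 0.831), the fall being smaller in BAT-Mcu-KO mice.

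The differences that these genes did show were small and shared a sign within the core. At 4°C all 14 core genes had a log2 difference above 0 between BAT-Mcu-KO and control mice (0.03 to 0.21, median 0.12), and all 14 had an interaction above 0 (0.09 to 0.26, median 0.15). The 17 genes of the 19S particle had an interaction median of 0.00, with 9 above 0 and 8 below, and over all genes the median was 0.01 with 7624 of 14651 above 0. At RT 2 of the 14 core genes were above 0 (median -0.04). For the interaction all 14 stayed above 0 without each of the 23 mice in turn (median 0.11 to 0.21), and 12 of 14 did without the 6 libraries rich in muscle transcripts (median 0.09). For genotype at 4°C 13 or 14 stayed above 0 without each mouse (median 0.09 to 0.16), and 9 of 14 did without the 6 libraries (median 0.02). These comparisons share mice, and the genes are not independent of one another.

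**Figure D5:**
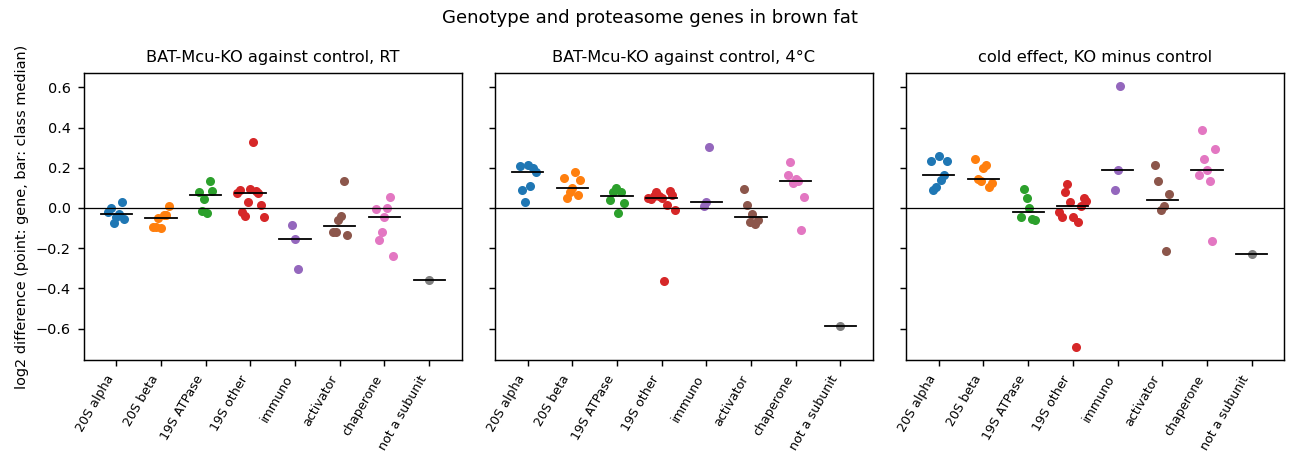
Log2 difference of BAT-Mcu-KO against control mice at RT (left), the same at 4°C (middle) and the cold effect in BAT-Mcu-KO minus that in control mice (right), each point being a gene and each bar the median of its class. None of the points passed the test, and in the middle and right panels all 14 core genes lie above 0.

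Within a group the genes tended to deviate together from mouse to mouse. In control mouse 1 at RT 40 of the 47 proteasome genes lay above the median of its group and in control mouse 6 at RT 39 did, while in control mouse 5 at RT 39 lay below it. In BAT-Mcu-KO mouse 4 at RT 42 of 47 lay above. The median deviation of the 47 genes in these 4 mice was 0.12, 0.13, -0.18 and 0.14 on the log2 scale. That of all genes in the same mice lay between -0.00673 and 0.00172, but the size factors hold it near 0 by design. Whether other sets of genes deviated in the same way was not tested. The 48 genes are thus not separate pieces of evidence on a condition.

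Proteins that work with the proteasome but carry other names were examined from a list of 21 genes measured. Of these 10 were higher and 2 lower in each genotype, and under the other scalings 8 were higher in control mice and 6 or 7 in BAT-Mcu-KO mice. When the 6 libraries rich in muscle transcripts were left out, 8 and 6 were higher and 2 were lower in each. Adrm1, the 19S ubiquitin receptor RPN13, lay at 339 to 463 normalized counts (median 389) in the controls at RT and at 526, 516, 592, 494 and 615 at 4°C, and rose in control mice (0.49 ± 0.10, adjusted p = 0.000217) and in BAT-Mcu-KO mice (0.43 ± 0.09, adjusted p = 0.000611) with no overlap. Pomp, the chaperone that matures the core, lay at 643 to 921 (median 800) in the controls at RT and at 773, 692, 706, 746 and 790 at 4°C. It did not pass the test (-0.08 ± 0.09 and 0.04 ± 0.09). Among the rest, Nploc4, an adaptor of the VCP unfoldase, rose by 0.80 and 0.89 on the log2 scale, and Uchl5, a deubiquitinase of the 19S particle, fell by 0.65 and 0.71.

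The NFE2L1 pathway, which is known to drive proteasome genes when the proteasome is short, was followed through 10 genes. In control mice 5 were higher and none lower, although both other scalings called Keap1 and Sel1l lower there. In BAT-Mcu-KO mice 5 were higher and 2 lower. Without the 6 libraries rich in muscle transcripts 5 were higher in each genotype, and none and 1 lower. Nfe2l1 itself lay at 2932 to 4177 normalized counts (median 3583) in the controls at RT and at 3475, 3923, 3991, 2967 and 3256 at 4°C, and did not pass the test there (-0.04 ± 0.10). In the BAT-Mcu-KO mice it lay at 3442 to 4426 (median 3839) at RT and at 2534 to 3472 (median 3273) at 4°C and was lower (-0.31 ± 0.10, adjusted p = 0.0103), a call lost without the 6 libraries rich in muscle transcripts (-0.22, adjusted p = 0.152). Ddi2, the protease that activates NFE2L1, lay at 382 to 528 (median 439) in the controls at RT and at 655, 754, 724, 743 and 850 at 4°C. It rose in both genotypes (0.73 ± 0.11, adjusted p = 5.22e-06, and 0.49 ± 0.10, adjusted p = 0.000408). Mafk and Maff, small MAF proteins that pair with NFE2L1, rose by 1.39 and 2.03 in control mice and by 1.42 and 1.56 in BAT-Mcu-KO mice on the log2 scale.

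The letters TGACNNNGC, the antioxidant response element that NFE2L1 and NFE2L2 bind with small MAF proteins, were searched on both strands of the 44 windows. They were found in 6, those of Psmb5, Psmb6, Psmc6, Psmd12, Psmd9 and Psme4 (13.6%), against 12.4% of all windows. The cyclic AMP response element TGACGTCA, whose first letters can overlap with it, was found in none of the 44 and in 1.79% of all windows. Of the 6 genes with the first motif, Psmc6 and Psmd12 rose in both genotypes (Psmc6 by 0.30 and 0.24, calls lost under both other scalings) and Psmb5 and Psmb6 did not pass the test in either. Psmd9 was lower and Psme4 higher in control mice, and neither passed the test in BAT-Mcu-KO mice. Windows of Psmb1, Psmb2, Psmb7, Psmc3, Psmd3, Psmd7 and Psmg2 were not searched.

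The genes of antigen presentation on class I molecules, which the immunoproteasome serves, were counted beside it. Of 12 measured, none was higher and 5 were lower in control mice (7 lower with 75th percentile scaling and 8 with quantile normalization), and 5 were lower in BAT-Mcu-KO mice. When those 6 libraries were left out, 4 and 5 were lower. Tap1 fell by 1.83 and 1.88 on the log2 scale. Tap2, the other subunit of the transporter, fell by 0.93 and 1.05, and Irf1, an interferon-responsive factor known to drive the immunoproteasome genes, fell by 1.31 ± 0.15 and 0.99 ± 0.14 (adjusted p = 9.49e-08 and 3.47e-06). The presenting molecules changed less, H2-K1 falling by 0.43 and 0.36 (not called in either genotype without the 6 libraries rich in muscle transcripts) and B2m standing at -0.25 ± 0.15 and -0.11 ± 0.14 without passing the test.

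Since leukocytes express the immunoproteasome strongly, 7 of their markers were measured, while 7 others of the list were not analysed here. In control mice none of the 7 was called by limma, DESeq2 or edgeR, and none had an unadjusted p under 0.05 by any of them. Their summed normalized count was 435 to 755 at RT and 509 to 766 at 4°C in control mice and 417 to 717 and 652 to 938 in BAT-Mcu-KO mice, where Cd68 (0.83) and Lyz2 (0.45) of macrophages were higher and Cd79a (-1.91) of B cells was lower. The median of this sum was 608 at RT and 634 at 4°C in control mice and 671 and 769 in BAT-Mcu-KO mice. Cd79a was at 0 in at least 1 mouse at 4°C of each genotype, and the other 6 markers were above 0 in every mouse. Among 6 endothelial markers, Kdr (1.16 and 1.11) and Pecam1 were higher and Tie1 was lower in each genotype, and their summed count went from 3084 to 4497 at RT to 5022 to 7844 at 4°C in control mice and from 3356 to 4498 to 4664 to 6545 in BAT-Mcu-KO mice. The part of leukocytes and endothelial cells in the values above was not tested. With the 6 libraries rich in muscle transcripts left out, the leukocyte counts were as before and Vwf was also higher in BAT-Mcu-KO mice.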

How the data were processed

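RNA-seq libraries were made from the whole brown fat of 23 mice, each a separate animal, by Smart-seq2 with paired reads. According to the submitters' processing notes and the study's methods, the authors aligned reads with STAR 2.4.0j to mm10. They counted uniquely mapping reads per gene of GENCODE M7 with HTSeq irrespective of strand, and dropped genes that did not reach 8 reads in 6 or more samples. The deposited values are a signal, the normalized counts of reads divided by a DESeq2 size factor. Whole reads were recovered from them within 0.1 of a read (100.0% of values in each library). In 1 library, control mouse 6 at RT, a read was worth almost 1 unit, so that whole numbers there say little. Libraries held 7129271 to 21006347 reads (median 13602248). The floor of 3 reads covers counting error only, and no value of the 48 genes fell under it. Standard errors of log2 fold changes come from the limma fit and include the spread between mice. The table lists 14651 genes, of which 19 symbols had been turned to dates by a spreadsheet. A second deposited table, of the authors' own fold changes and p-values, was not used.

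The values were fitted as log2(normalized count + 1) with limma 3.58.1 (trend, 4 group means, all 23 mice) in R 4.3.3. Calls were made at a Benjamini-Hochberg adjusted p under 0.05 over all 14651 genes. Fold changes are on this scale, which understates those of low genes. The test was tried on simulated data. Alternatives were DESeq2 1.42.0 and edgeR 4.0.16 on the recovered reads, quantile normalization, 75th percentile scaling, only the 2 groups compared, another pseudocount, a filter on low values, a replicate block and leaving out each mouse. Leaving out the 6 libraries with a summed muscle count over 10000, and the counts by class, were added after seeing the data. Replicate mice of a group differed by more than sampling noise in all 55 pairs (chi-square per degree of freedom 8.91 to 64.2).

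The 48 genes and the gene lists were chosen with earlier results of these data known. The genes described singly were the catalytic and inducible subunits, the PA28 genes, Psme3, Nfe2l1, Ddi2, Pomp and Adrm1, the gene with the smallest p of each class, those with the smallest p for genotype or the interaction and those called against most of their class. Of the other lists, counts are given with genes that changed by over 1 on the log2 scale. Some genes of these lists are not reported here. Psmd3 and the other genes named were chosen after their values were seen. Positions and exon lengths came from GENCODE M21 on GRCm38 (48 of 48 genes found) and promoter windows from RefSeq on GRCm38.p6 (41 of 48). An exon length merges the exons of all annotated transcripts of a gene, so values per kilobase depend on the annotation. Exons of 15 of the 48 genes overlap another gene, for 6 of them over 10% of their exon bases. A near-identical copy (BLAST 2.17.0+) was found for 10 of the 48 genes: Psma3, Psma4, Psma5, Psmb3, Psmb5, Psmc1, Psmd11, Psmd2, Psme2 and Psme2b. As only uniquely mapping reads were counted, reads that match such a gene and its copy equally are missing from its value. Tables and plots were made with Python 3.11.15, pandas 2.3.3 and matplotlib 3.10.9.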

Additional observations from a re-analysis of the deposited data

Results flagged for a closer look

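Within groups, 6 of the 84 sets of values tested over 21 genes held a mouse far from the rest by Dixon's criterion, which chance meets in about 1 in 20 sets. The lowest were Psmb9 in control mouse 4 at RT (127 normalized counts, the others 180 to 200), Psme3 in BAT-Mcu-KO mouse 3 at 4°C (222, the others 255 to 263) and Psma4 in BAT-Mcu-KO mouse 5 at 4°C (732, the others 829 to 875). The highest were Psmd3 in BAT-Mcu-KO mouse 1 at RT (1004, the others 278 to 387), Psme3 in control mouse 4 at 4°C (336, the others 227 to 249) and Psmg4 in BAT-Mcu-KO mouse 6 at 4°C (90.1, the others 65.5 to 69.7).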

How the results depend on the processing

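The counts moved most with scaling. With quantile normalization the genes higher at 4°C numbered 12 instead of 19 in control mice and 12 instead of 21 in BAT-Mcu-KO mice, the 19S genes higher in BAT-Mcu-KO mice from 13 to 6, the core genes there from 7 to 4 and the chaperones lower there from 1 to 0. With 75th percentile scaling the genes higher in control mice went to 11. Fitting only the 2 groups compared left 7 of 11 genes lower in control mice and 2 of 4 chaperones. Leaving out the 6 libraries rich in muscle transcripts left 7 and 2 as well, and 0 chaperones lower in BAT-Mcu-KO mice. The cause was not tested.

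Without each mouse in turn, the genes higher ranged from 17 to 21 in control and 18 to 21 in BAT-Mcu-KO mice, those lower from 8 to 13 and 5 to 7, the core genes higher in control mice from 3 to 5, and the chaperones lower from 3 to 6 and 0 to 1. The 5 inducible genes were lower in every such fit. Of 1178 alternatives for single genes, 1116 kept direction and call, 38 lost the call, 7 gained one and 17 turned sign. The turned signs were all of differences not called at first. Psmb5 in control mice was -0.030 with quantile normalization, -0.026 with 75th percentile scaling and -0.0057 to 0.20 without each mouse. Pomp in BAT-Mcu-KO mice was -0.041, -0.0075 and -0.011 to 0.072 under the same. Nfe2l1 in control mice was 0.050 without the 6 libraries and -0.099 to 0.020 without each mouse, and in BAT-Mcu-KO mice Psmb1 ranged from -0.044 to 0.015 and Psmb6 from -0.031 to 0.027 without each mouse, while quantile normalization called both lower there (-0.19 and -0.20).

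In a fit with a replicate block, 19 genes were higher and 11 lower in control mice and 21 and 7 in BAT-Mcu-KO mice. Deviations of mice with the same number correlated weakly (mean correlation -0.03 in the cold comparison of control mice, -0.10 in that of BAT-Mcu-KO mice, -0.04 for genotype at RT and 0.12 at 4°C, over 0.1 in 2 of 5 pairs). Mice with different numbers were not compared in this way, so whether the numbers pair the mice is not known.

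Over all genes, limma called 7 for genotype at RT, 11 at 4°C and 0 for the interaction, DESeq2 20, 23 and 28, edgeR 7, 6 and 0, and limma on only the 2 groups 3 and 2. The interaction of the 48 genes had standard errors of 0.10 (Psmd13) to 0.44 (Psmd3) on the log2 scale.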
